A study of Mus musculus with 6 samples.

Results

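Large clusters of distal H3K27ac peaks were described in pre-B cells, with the Pax5 peaks inside them and the genes they lie at. An H3K27ac peak was called distal when it lay more than 2 kb from every transcript start of the GENCODE M1 annotation of mm9. Distal peaks with at most 12500 bp between them were joined, and a group was kept when its peaks covered at least 8 kb in sum. Of 12569 groups, 701 met this rule, and 4979 of those that did not were lone peaks. They held 12502 of the 44994 distal peaks (27.8%) and 36.3% of the distal H3K27ac sequence. The members were therefore chosen by the length and spacing of the H3K27ac peaks, and these are given as a description.

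H3K27ac is an acetylation of histone H3 that is found at active enhancers and promoters, and enhancers are stretches of DNA that bind transcription factors and raise the transcription of a gene on the same chromosome. Several enhancers often lie side by side at genes that define a cell type, and long runs of acetylated chromatin are known from such genes in B cells. Pax5 is the transcription factor that commits lymphoid precursors to the B cell lineage, binding DNA through its paired domain.

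The cells were pre-B cells from C57BL/6 mice of 6 to 14 weeks, of both sexes, labelled RAG-/-µ+. They lack RAG, the recombinase that cuts antigen receptor genes, and carry a rearranged IgM transgene in its place, so their light chain genes are not rearranged and every cell has the same heavy chain. H3K27ac, H3K4me3 and Pax5 were each profiled by ChIP-seq in 1 library, so no value below has a replicate check and no difference was tested across samples. The deposited lists hold 69345 H3K27ac peaks, 15445 Pax5 peaks and 782636 bins of 25 bp for H3K4me3, a mark of active promoters, without read counts, so the depth is unknown. All 10 B lineage genes looked up, among them Cd79a, Cd79b, Blnk, Pax5, Ebf1 and Vpreb1, had H3K27ac and Pax5 peaks within 1000 bp of a start, against 49.0% and 38.1% of all protein-coding genes. H3K27ac lay at the start of 1 of 8 T cell genes (Lck), 4 of 6 myeloid genes (Csf1r, Mpo, Lyz2 and Itgam) and 3 of 4 erythroid genes (Klf1, Hbb-b1 and Epor), and Pax5 at none of these 18. The part of other cells in the H3K27ac list was not tested.

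The sequences below come from Pax5 peaks of the largest clusters. Each is the 300 bases about the centre of a Pax5 peak, on the plus strand of mm9, outside exons. They are the first such windows, in order of the H3K27ac length of the cluster, that hold GCGTGAC, a core of Pax5 sites, on either strand. Capitals mark this core, which reads GTCACGC where it lies on the minus strand. The windows were chosen for the core, so they do not show where in a peak Pax5 bound.
Tomm20 cluster, chr8:129391555-129391854: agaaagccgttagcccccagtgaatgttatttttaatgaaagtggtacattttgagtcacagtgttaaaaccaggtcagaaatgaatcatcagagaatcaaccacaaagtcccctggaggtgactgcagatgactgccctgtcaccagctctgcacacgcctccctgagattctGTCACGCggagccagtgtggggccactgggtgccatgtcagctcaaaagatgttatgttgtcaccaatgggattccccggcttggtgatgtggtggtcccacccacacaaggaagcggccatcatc
Zmiz1 cluster, chr14:26333206-26333505: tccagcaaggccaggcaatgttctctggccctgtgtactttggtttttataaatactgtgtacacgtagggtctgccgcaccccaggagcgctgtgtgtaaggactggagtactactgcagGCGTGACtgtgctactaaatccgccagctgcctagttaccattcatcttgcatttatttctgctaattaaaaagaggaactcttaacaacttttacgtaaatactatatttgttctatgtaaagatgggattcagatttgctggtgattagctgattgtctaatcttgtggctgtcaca
Eif4e3 cluster, chr6:99233170-99233469: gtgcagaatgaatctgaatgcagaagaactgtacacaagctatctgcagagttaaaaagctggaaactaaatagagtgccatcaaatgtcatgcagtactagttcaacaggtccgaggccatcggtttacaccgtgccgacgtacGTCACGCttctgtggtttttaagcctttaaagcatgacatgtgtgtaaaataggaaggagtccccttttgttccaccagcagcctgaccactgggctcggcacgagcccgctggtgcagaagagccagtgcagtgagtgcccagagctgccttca
Cxcr4 cluster, chr1:130497945-130498244: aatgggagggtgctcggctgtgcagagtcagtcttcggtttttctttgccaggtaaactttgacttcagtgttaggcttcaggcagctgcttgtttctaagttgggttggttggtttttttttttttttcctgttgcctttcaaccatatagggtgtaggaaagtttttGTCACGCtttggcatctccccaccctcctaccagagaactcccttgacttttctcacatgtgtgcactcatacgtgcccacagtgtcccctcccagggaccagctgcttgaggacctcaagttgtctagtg
Ly6e cluster, chr15:74766986-74767285: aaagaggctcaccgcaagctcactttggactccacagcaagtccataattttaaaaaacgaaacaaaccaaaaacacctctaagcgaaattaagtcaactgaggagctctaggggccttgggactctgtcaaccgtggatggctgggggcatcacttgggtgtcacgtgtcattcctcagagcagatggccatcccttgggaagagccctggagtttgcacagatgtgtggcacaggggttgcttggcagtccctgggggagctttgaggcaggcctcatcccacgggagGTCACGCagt
Gfod1 cluster, chr13:43304983-43305282: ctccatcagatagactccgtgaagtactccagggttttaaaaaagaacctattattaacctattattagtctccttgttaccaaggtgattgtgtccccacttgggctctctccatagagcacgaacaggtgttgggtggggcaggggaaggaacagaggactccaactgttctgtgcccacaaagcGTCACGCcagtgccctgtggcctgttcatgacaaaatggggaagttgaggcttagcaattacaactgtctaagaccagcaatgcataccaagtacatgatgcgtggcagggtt
The window of the Zmiz1 cluster lies in an intron of Zmiz1, that of the Eif4e3 cluster in an intron of Eif4e3 and that of the Gfod1 cluster in an intron of Gfod1. The other 3 are intergenic. The core was on the plus strand in the window of Zmiz1 and on the minus strand in the others. The Pax5 peaks around these windows had scores of 149.73 (Tomm20), 88.72 (Zmiz1), 290.58 (Eif4e3), 707.14 (Cxcr4), 96.07 (Ly6e) and 1590.98 (Gfod1), which are the peak caller's own numbers.

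The 701 clusters spanned from 8.57 to 204.4 kb, with a median of 38.3 kb, and 31.8 Mb in all. Their H3K27ac peaks covered from 8.03 to 84.8 kb, with a median of 11.6 kb, which is a median of 33.4% of the span. A cluster joined a median of 15 peaks, from 1 to 88, and the widest peak of a cluster had a median of 3.31 kb. A single peak of 9.30 kb in Supt4h1 met the rule by itself. There were 224 clusters that spanned more than 50 kb and 34 that spanned more than 100 kb. The lengths fell without a gap through the limit of 8 kb. Just inside it were the clusters at Wdfy4 (8.04 kb, 1 Pax5 peak), Snx9 (8.03 kb, 1 Pax5 peak) and Plek2 (8.03 kb, 1 Pax5 peak). Just outside were the groups at Pik3r1 (7.998 kb, 1 Pax5 peak), Itga4 (7.98 kb, no Pax5 peak) and 2610301B20Rik (7.98 kb, no Pax5 peak).

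**Figure D1:**
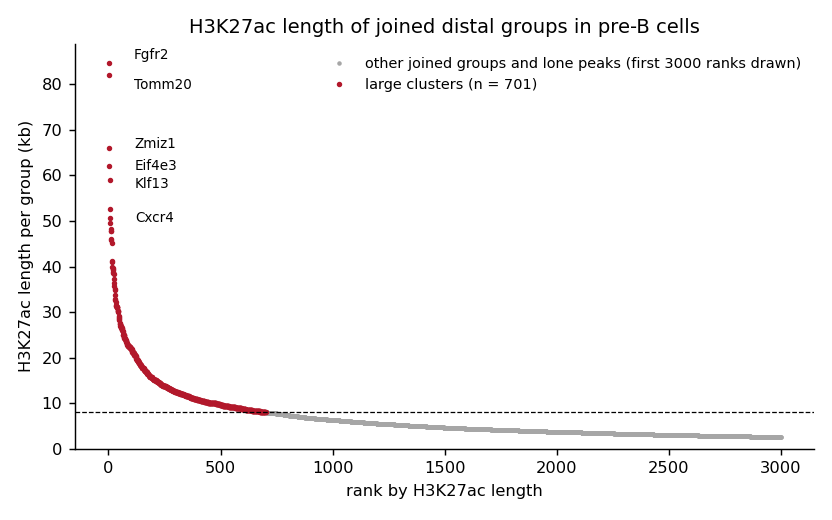
H3K27ac length (kb) of joined groups of distal peaks against their rank, red for the 701 large clusters and grey for the next groups, with the limit of 8 kb dashed. A few clusters stand far above the median of 11.6 kb, led by Fgfr2 with 84.8 kb and Tomm20 with 82.2 kb, and the curve passes the limit without a step.

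A cluster is called here by the protein-coding gene whose body it overlaps most, or, where it overlaps none, by the one with the nearest start. The largest by H3K27ac length lay on chromosome 7 from 139847165 to 139965543 and covered 84.8 kb of 118.4 kb with 42 peaks, the widest being 24.7 kb. It overlapped Lhpp, which encodes a phosphatase, and Fam53b, and lay within a gene model of 3.01 Mb that GENCODE M1 names Fgfr2, and the nearest protein-coding start, of Fam53b, was 3.06 kb away. The name Fgfr2 thus rests on one long model. With Gm20388, a model of 4.43 Mb, it gave 10 clusters their name. Of the Gm20388 clusters, that with the most H3K27ac had the start of Zfpm1 nearest, and another that of Irf8.

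The second cluster lay in intergenic sequence on chromosome 8 from 129207303 to 129411660, with 88 peaks covering 82.2 kb. It had the longest span, 204.4 kb, overlapped no protein-coding gene, and its nearest protein-coding start was that of Tomm20, a mitochondrial import receptor, 58.1 kb away. Zmiz1, which encodes a coregulator of transcription, followed with 71 peaks and 66.03 kb of H3K27ac. The fourth cluster covered 62.0 kb in 183.2 kb of Eif4e3 and the start of Foxp1, a forkhead factor that early B cell development needs. The cluster at Klf13, a zinc finger factor, covered 59.0 kb with 74 peaks. That around Cxcr4, the receptor for the chemokine that holds B cell precursors in the bone marrow, covered 52.7 kb in 178.0 kb with 79 peaks, mostly upstream of its start. Rreb1 (50.6 kb), Thada with Zfp36l2 (49.6 kb), Ly6e with Ly6a and Ly6i (48.3 kb) and Gfod1 (47.9 kb) completed the 10 largest. Rreb1 encodes a zinc finger factor and Zfp36l2 an RNA-binding protein that promotes mRNA decay. The Ly6 genes are related, and reads with up to 3 best positions were kept. Peaks within these genes may therefore not belong to 1 copy, which was not tested. In this cluster Ly6e began 58.5 kb from the first base, and the joined peaks over the first 43.5 kb lay outside these genes. The cluster at Prim2, a primase subunit, was the second longest by span with 198.3 kb, although its 76 peaks covered only 24.1% of it.

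**Figure D2:**
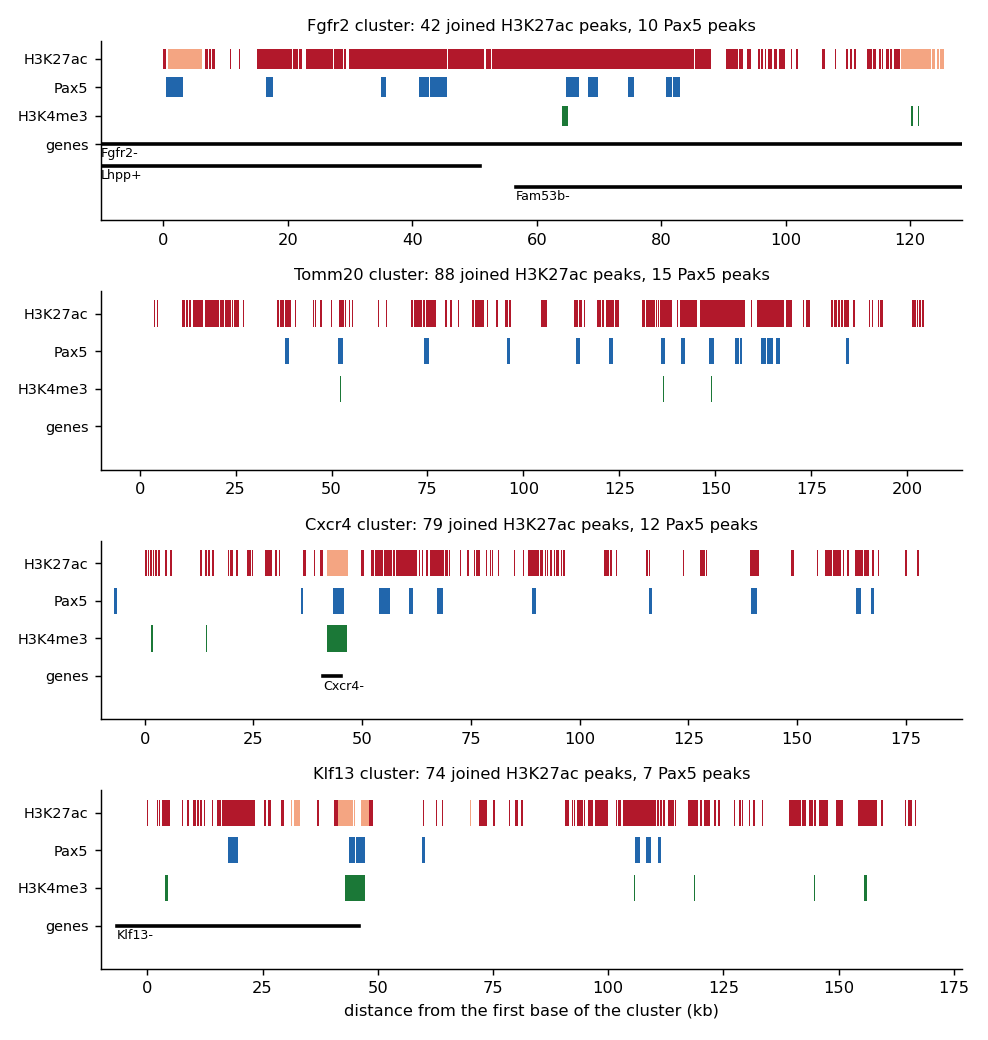
Maps of 4 of the 6 largest clusters, in kb from the first base of the cluster: joined H3K27ac peaks in red, H3K27ac peaks near a start in pale red, Pax5 peaks in blue, H3K4me3 in green and protein-coding genes as black lines with their strand. Pax5 peaks lie along most of the Tomm20 cluster, which holds 15 of them and no gene, and H3K4me3 in the Cxcr4 and Klf13 clusters is widest at the start of the gene.

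A Pax5 peak overlapped the span of 622 of the 701 clusters (88.7%, exact 95% binomial interval 86.2 to 91.0%, which covers counting error only). Over all 12569 groups of distal peaks, these clusters included, it was 27.6%. Of the 1129 groups covering 4 to 8 kb it was 66.4%, of smaller joined groups 27.6% and of lone peaks 10.3%. A longer span can hold more peaks by its length alone, and these shares are not a comparison of Pax5 between groups of one length. A cluster held a median of 2 Pax5 peaks. There were 79 with none, 172 with 1, 360 with 2 to 4 and 90 with 5 or more, of which 8 had at least 10. The spans held 1714 Pax5 peaks, 11.1% of the list, and 22.1% of the 6552 Pax5 peaks that lay over 2 kb from every start. Of these 1714, 1380 overlapped a joined H3K27ac peak (80.5%), 284 another H3K27ac peak, that is one near a start, and 50 none (2.92%). Only 268 lay within 2 kb of a start. With each span cut from its ends to its centre into 5 equal bins, 24.4% of these 1380 Pax5 peaks lay in the outermost bin and 19.5% in the innermost, against 26.5% and 18.5% of the H3K27ac peaks. A span begins and ends with a joined H3K27ac peak by the rule, and these Pax5 peaks were taken on joined peaks. The higher share in the outermost bin therefore cannot be read as a result.

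The Tomm20 cluster had the most Pax5 peaks, 15, all of them on joined H3K27ac peaks and all over 2 kb from a start. Cxcr4 and Sema4b, which encodes a semaphorin, had 12 each, with 11 and 10 of them on joined peaks. Mtss1, whose product bends membranes and binds actin, and Ly6e had 11. Fgfr2, Cecr5 and Ptprj, a receptor tyrosine phosphatase, had 10, those of Cecr5 in intergenic sequence 7.97 kb from its start. Ppp2r5a, a regulatory subunit of a protein phosphatase, and Erg, an ETS factor of blood progenitors, had 9. Of these 10 clusters, 7 are among the 14 largest by H3K27ac length.

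**Figure D3:**
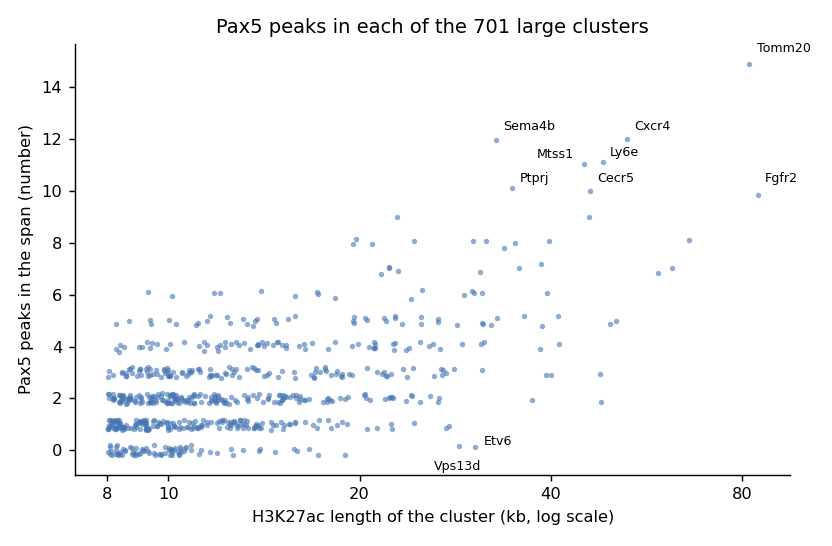
Pax5 peaks in the span (number, points spread slightly up and down so that they can be told apart) against the H3K27ac length of each of the 701 clusters (kb, log scale). The number rises with length, up to 15 at Tomm20, and Etv6 and Vps13d have none in spite of 30.3 and 28.7 kb of H3K27ac.

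The number of Pax5 peaks rose with the H3K27ac length of a cluster (Pearson's r = 0.629 and Spearman's rho = 0.471 over 701 clusters). These clusters come from the same pair of libraries, and the coefficients are a description. The clusters were also ranked by H3K27ac length and divided into 4 sets of 175 or 176. The set with the longest (16.4 to 84.8 kb) had 12.7 Pax5 peaks per 100 kb of H3K27ac, and the following sets had 13.3, 14.7 and 13.9. All 701 clusters together had 13.3. Groups covering 4 to 8 kb had 14.8, smaller joined groups 15.8 and lone peaks 20.8. The 24351 H3K27ac peaks within 2 kb of a start had 41.4. The ratio between large clusters and all other distal peaks was 0.826 when an overlap of 1 bp counted. With the midpoint of the Pax5 peak it was 1.05, and with 50% of the Pax5 peak covered 1.16, so no direction can be given for the density.

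Counted per peak, 1561 of the 12502 H3K27ac peaks in large clusters overlapped a Pax5 peak (12.49%, exact binomial interval 11.9 to 13.1%), against 11.6% of the other distal peaks and 11.8% of all distal peaks. This hides a difference by width. Among peaks under 500 bp, 3.15% of the 6974 in large clusters overlapped Pax5, against 5.98% of the 21645 elsewhere. Of peaks from 500 to under 1000 bp it was 10.2% against 15.6%, and of those from 1000 to under 2000 bp 23.7% against 28.4%. Among peaks of 2000 bp and over, it was 58.4% of 1180 in large clusters (interval 55.5 to 61.2%) and 54.0% of 1000 elsewhere (50.9 to 57.1%), and these intervals overlap. With the midpoint of the Pax5 peak, the ratios of these shares were 0.469, 0.556, 0.700 and 1.05, in place of 0.527, 0.657, 0.834 and 1.08. Under both definitions the peaks of the 3 narrower classes overlapped Pax5 in a smaller share in large clusters than elsewhere, a difference that has no replicate check. Within the clusters, joined peaks with Pax5 had a median width of 1730 bp and those without it 393 bp. A wider peak also has more bases in which an overlap can fall, which was not corrected for. This held cluster by cluster, since peaks with Pax5 had the larger median width in 559 of the 583 clusters that had both kinds. The widest peak of the cluster overlapped Pax5 in 417 clusters (59.5%). The median Pax5 score on joined peaks was 202.7, against 188.9 on other distal H3K27ac and 257.9 on H3K27ac near starts.

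**Figure D4:**
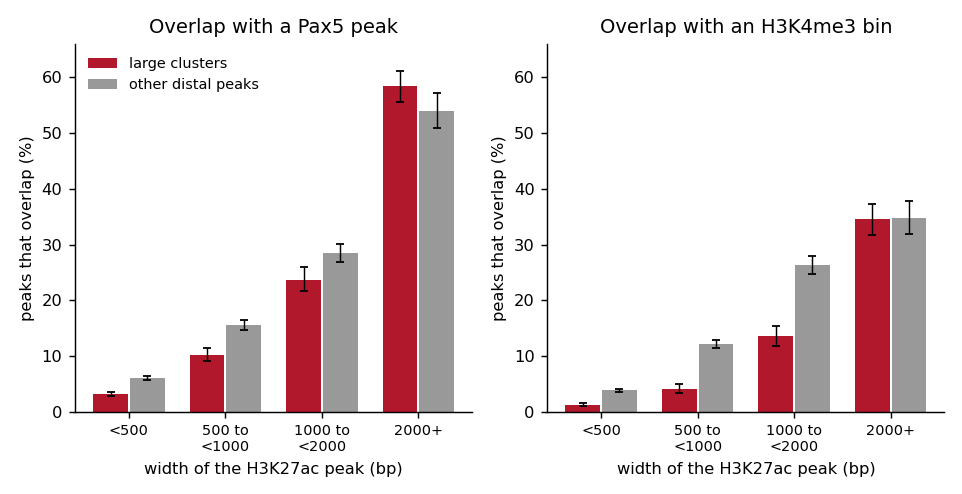
Share (%) of distal H3K27ac peaks that overlap a Pax5 peak (left) or an H3K4me3 bin (right) by width of the H3K27ac peak (bp), red in large clusters and grey elsewhere, with exact 95% binomial intervals. The shares rise with width in both, and red is below grey in the 3 narrower classes, for Pax5 by 3.15% against 5.98% in the narrowest.

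The 79 clusters without Pax5 covered a median of 9.75 kb, against 12.04 kb for the 622 with it, and only 2 of them were among the 100 largest. These were in Etv6, an ETS family repressor needed in blood stem cells, with 53 peaks and 30.3 kb in a span of 138.1 kb, and in Vps13d, a lipid transfer protein, with 28.7 kb. Mgll, a lipase, with 19.0 kb, Runx1, a factor of blood cell development, with 17.2 kb and an intergenic cluster 91.9 kb from Nxt1 with 16.7 kb followed. The widest peak of these clusters had a median of 2.46 kb, against 3.41 kb in those with Pax5. Of the clusters without Pax5, 15.2% held a transcript start in the span, against 49.2% of those with it. A Pax5 peak at such a start itself counts as one in the span, so this difference cannot be read as a result. A Pax5 peak over 2 kb from every start lay in 596 of all 701 clusters (85.0%). The absence of Pax5 from the cluster did not extend to the starts of most of the nearest genes. Of the 78 genes nearest to these clusters, 58 had a Pax5 peak within 1000 bp of a start (74.4%), against 398 of the 575 nearest to clusters with Pax5 (69.2%) and 38.1% of all protein-coding genes.

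H3K4me3 overlapped 6.51% of the joined peaks (interval 6.08 to 6.96%), against 8.61% of the other distal peaks, 8.03% of all distal peaks and 65.8% of the H3K27ac peaks near starts. It was at least at 1 joined peak in 459 clusters (65.5%). In the same classes of width, it overlapped 1.19%, 4.13%, 13.5% and 34.5% of the peaks in large clusters and 3.83%, 12.1%, 26.4% and 34.8% of those elsewhere. Of the joined peaks 57.1% had their midpoint in an intron, 3.33% in an exon and 39.6% between genes. Elsewhere 53.4%, 4.51% and 42.1% of the distal peaks did. A protein-coding start lay in the span of 240 clusters (34.2%), since joining was allowed across a start, and a start of any transcript in that of 318. With a start in the span 96.2% of clusters had a Pax5 peak, and without one 82.5% of 383. The first share includes Pax5 peaks at the start itself, so these shares are not a comparison of distal Pax5. The chromosomes with the largest share of their distal peaks in large clusters were chromosome 17 (33.8%) and chromosome 7 (33.0%). On chromosome X it was 3.14%, with 1 cluster, in Mid1.

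The clusters overlapped a protein-coding gene in 523 cases, of which 127 overlapped 2 or more, and 178 overlapped none. The nearest protein-coding start was a median of 3.89 kb from the span and over 50 kb away for 98 clusters. The farthest, at 418.2 kb, was that of Mef2c, whose cluster of 9.96 kb held 3 Pax5 peaks. Where several starts of protein-coding genes lay in a span, only the first by position was taken as the nearest. The genes nearest to the clusters by this rule were 643. H3K4me3 lay within 1000 bp of a start of 541 of these (84.1%, interval 81.1 to 86.9%). Of genes nearest to a group of 4 to 8 kb and to no large cluster it was 78.5%, of those nearest to a lone peak and to neither of these 68.2%, and of all protein-coding genes 53.0%. Pax5 lay at the start of 69.4%, 59.6%, 48.4% and 38.1% of the same sets. There were 50 genes that gave their name to more than 1 cluster. The long model Gm20388 named 8. Arid1b, a subunit of a chromatin remodelling complex, named 4 with 12 Pax5 peaks in all, and Lipc also 4, with 7. Ets1, an ETS factor of lymphocytes, named 3 with 14, and Runx1 also 3, with 1 Pax5 peak in all. Map3k1, Msi2 and Prex1 named 3 each as well, with 6, 5 and 4 Pax5 peaks.

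Genes of 10 lists were looked up, and a gene had a cluster when its body overlapped the span or its start was the nearest. By this rule 823 of 22367 protein-coding genes had one (3.68%), and 2.87% had one by the nearest start alone. Of 36 transcription factor genes of B cells, 22 had a large cluster (61.1%), also 22 by the nearest start alone. By overlap with the gene body alone it was 16. The nearest start had no limit of distance, and that of Mef2c was 418.2 kb from its cluster. The clusters of Irf4, Bach2, Id3, Mef2c, Pou2af1 and Myc did not overlap the gene body and were tied by the nearest start only. In 21 of the 22 genes a cluster held Pax5, the exception being Etv6. Of all large clusters 88.7% held Pax5, and a gene with several clusters was counted when any of them did. The count is thus near the general share and is not a trait of these genes. Ebf1, which with Pax5 specifies the B lineage, had 44 peaks covering 23.4 kb with 3 Pax5 peaks. Ikzf1, the gene of Ikaros, had a pair of clusters with 4 Pax5 peaks, and its relative Ikzf3 had 14.6 kb with 4. Irf4 and Irf8, which promote light chain rearrangement, had 27.4 kb with 3 Pax5 peaks and 16.1 kb with 4. Bach2, a repressor of plasma cell differentiation, had 2 clusters with 6 Pax5 peaks.

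Among the factors shared with other blood cells, Erg had 45.9 kb with 9 Pax5 peaks and its close relative Fli1 29.0 kb with 4. Myb, needed in early B cell development, had 2 clusters with 74 peaks and 6 Pax5 peaks, the larger covering 32.9 kb. Foxp1 had 3 clusters with 113 peaks and 9 Pax5 peaks, and Bcl11a 2 with 4 Pax5 peaks. The largest of Foxp1, with 7 of its Pax5 peaks, is the Eif4e3 cluster above, of which Foxp1 takes up only the first 5.85 kb. Cux1 had 61 peaks covering 39.3 kb with only 3 Pax5 peaks. Klf2, which restrains proliferation, had 23.0 kb with 7, in a span of 49.7 kb. Elf1, Id3, Mef2c, Pou2af1, Pou2f2 and Myc had smaller clusters of 8.07 to 13.8 kb with 1 to 3 Pax5 peaks. Pax5, Foxo1 and the other factor genes of the list had no cluster that met the rule.

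Genes of pre-B receptor signalling had a large cluster in 6 of 31 cases (19.4%). Sykb, the annotation's name for the kinase Syk that the receptor activates, had 32 peaks covering 30.3 kb with 6 Pax5 peaks. Inpp5d, the phosphatase SHIP-1, had 24.9 kb with 4 Pax5 peaks, and Cd79b, a signalling chain of the receptor, 13.3 kb with 5. Plcg2, the phospholipase downstream of the receptor, had 2 clusters with 6 Pax5 peaks, Prkcb 15.7 kb with 2 and Prkcd 2 clusters with 1. Of 22 genes of the IL-7 receptor pathway and survival, 6 had one (27.3%). The cluster at Ccnd3, the cyclin that drives pre-B cell division, was the largest of these with 49 peaks covering 40.003 kb and 3 Pax5 peaks. Bcl2l1, the survival gene of Bcl-xL, had 26.9 kb with 3, and Il7r, the IL-7 receptor chain, 26.6 kb with 2. Mcl1 had 14.9 kb with 2 and Cdkn1b, an inhibitor of cell division, 8.78 kb with 3.

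Among 31 surface molecule genes, 14 had a cluster (45.2%). Each of these held at least 1 Pax5 peak, as 88.7% of all large clusters did. By the nearest start alone it was only 9 genes, since a span with several starts counts for 1 gene there. After Cxcr4, Ccr7, a receptor of chemokines of lymphoid organs, had 33 peaks covering 25.0 kb with 5. Spn, the gene of CD43, had 18.3 kb with 4. Cd38 and its neighbour Bst1, a pair of related enzymes, shared 1 cluster of 17.3 kb with 1 Pax5 peak. Cxcr5, Cd24a, Fcrla, Cd74, Cd180, Ptprc and Cd9 had from 8.09 to 14.2 kb, Cxcr5 and Cd180 by the nearest start only. Between the first Vκ gene and 50 kb beyond Igkc there was 1 large cluster among 25 groups of distal peaks. It ran on chromosome 6 from 70659524 to 70695973, around Igkc, with 13 peaks covering 11.1 kb and 5 Pax5 peaks. Of 13 genes of V(D)J recombination only Dntt had a cluster (7.69%), with 22.1 kb and 3 Pax5 peaks. Dntt encodes the polymerase that adds bases at junctions.

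Genes of other cells were looked up in the same way. Of 22 T cell genes 3 had a cluster (13.6%), and 1 by the nearest start alone, the 3 including Notch1 with 14.4 kb and 3 Pax5 peaks and Cd5 with 9.66 kb and none. Of 22 myeloid genes 1 had one (4.55%), Emr1, by its nearest start. Of 15 erythroid and megakaryocyte genes it was 2 (13.3%), Gfi1b with 9.01 kb and Zfpm1 with 23.7 kb. Of 20 genes of other organs none had one, and of 20 genes used in every cell 1, Actb, by its nearest start. The lists were written with B cell biology and earlier results of these data in mind, so the counts describe them, and differences between lists were not tested.

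**Figure D5:**
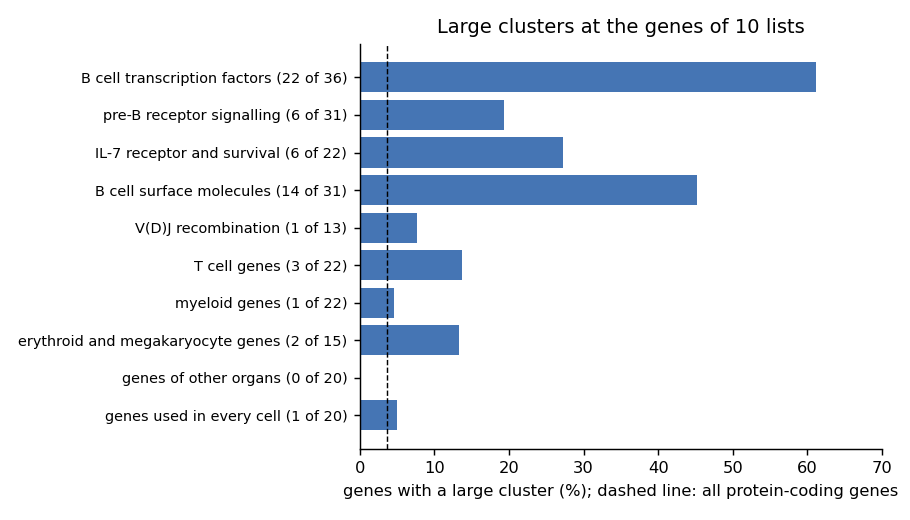
Share of genes with a large cluster (%) in 10 lists, with the counts beside the names and the share of all protein-coding genes, 3.68%, as a dashed line. Transcription factors (61.1%) and surface molecules (45.2%) of B cells are highest, and genes of other organs have none.

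The sequence around Pax5 in the clusters was set beside that of other windows of 300 bases. GCGTGAC occurred on either strand in 47 of 1368 windows about the centre of distal Pax5 peaks on joined H3K27ac (3.44%). It occurred in 4.37% of those on other distal H3K27ac, in 5.71% of all Pax5 peaks and in 0.725% of all distal H3K27ac windows. About the centre of joined H3K27ac peaks without Pax5 it occurred in 0.631%. The same letters in reverse order, CAGTGCG, occurred in 2.05% of the first windows and in 1.61% of those on other distal H3K27ac. They occurred in 3.88% of all Pax5 peaks and in 0.877% of the joined peaks without Pax5. At Pax5 peaks within 2 kb of a start, the core occurred in 5.81% and the reversed letters in 5.53%. The windows at Pax5 in clusters had a median GC content of 51.3% and a mean of 5.68 CpG, against 49.3% and 3.44 at joined peaks without Pax5. Other letters searched on both strands were GAGGAAGT, as bound by PU.1, TCCC and GGGA with any 2 bases between them, as bound by EBF1, CAGGTG, as bound by E2A, and TGTGGTT, as bound by Runx factors. They occurred in 7.68%, 2.41%, 33.3% and 11.5% of the windows at Pax5 in clusters, in 7.00%, 2.87%, 29.3% and 12.3% of those at Pax5 on other distal H3K27ac, and in 2.60%, 1.07%, 24.2% and 7.56% of the joined peaks without Pax5. In all distal H3K27ac windows it was 3.26%, 1.04%, 23.2% and 7.83%. The 6 windows printed above are thus a minority, since only 1 of the 15 Pax5 windows of the Tomm20 cluster and 1 of 11 of the Cxcr4 cluster held the core, and none of the 9 of the Fgfr2 cluster.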

How the data were processed

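Per the labels, the authors aligned reads to mm9 with Bowtie 0.12.9 and called peaks with MACS 1.4.2, whereas the methods of the study name another Bowtie version. They removed duplicate reads and kept reads with up to 3 best positions. The settings behind the lists and the control of the H3K27ac list are not given in the sources used here, and Pax5 was called against input. The 3 inputs were not analysed here. The score that the authors deposited with each Pax5 peak was used only as a description, and that of H3K27ac was not used. Positions were read on NCBIM37, which is mm9, with GENCODE M1, and no peak ended beyond its chromosome. Peaks were joined as in the text, distances being bases between the nearest base of a peak and a start. An overlap was 1 bp or more, and intervals are exact (Clopper-Pearson) with a confidence of 95%. Genes were matched by symbol or RefSeq synonym, and all 234 list entries matched, to 232 genes. Some list genes are counted but not reported here by name. Named genes were those at the 10 clusters with the most H3K27ac, the 5 longest, the 10 with the most Pax5 peaks, the 5 largest without Pax5, the 3 on each side of the limit, list genes and the Igκ locus. Those naming more than 1 cluster, Supt4h1, Mid1 and the farthest start were chosen after the values were seen. Sequences came from NCBIM37. Members and lists were chosen with earlier results of these data known. Joining and counting were tested on simulated data. Alternatives were other distances, limits and definitions of overlap. Scripts ran under Python 3.11.15, with intervals from scipy 1.17.1, arrays in numpy 2.4.6 and plots drawn by matplotlib 3.10.9.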

Additional observations from a re-analysis of the deposited data

How the results depend on the processing

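Of 70 values recomputed under 15 alternatives, 52 stayed within 1.5 times the value given or, for shares, within its binomial interval. This band is wide. The density ratios of 1.05 and 1.16, on the other side of 1, count among the 52, as do the 470 clusters with 10 kb covered. No paired analysis was possible because no group has more than 1 library. Joining over at most 5 kb gave 460 clusters with a median span of 20.6 kb, 81.5% of them with Pax5, and 14.2% of their peaks overlapped Pax5. Joining over 20 kb gave a median span of 58.4 kb and 92.4% of clusters with Pax5. The share of clusters with Pax5 was 84.4% with peaks over 5 kb from a start, 83.9% with 6 kb covered (1079 clusters), 92.1% with 10 kb covered, 83.4% without joining across a start, 83.5% with Pax5 on a joined peak only and 66.3% with the higher-scoring 50% of Pax5 peaks. The share of joined peaks with Pax5 was 13.1% without joining across a start, 9.90% without peaks that had H3K4me3, 8.09% by the midpoint, 7.81% with 50% of the Pax5 peak covered and 6.44% with the higher-scoring Pax5 peaks. The ratio of Pax5 densities was 0.826 as given and lay below 1 except with the midpoint (1.05) and 50% covered (1.16). The share of B cell transcription factor genes with a cluster ran from 44.4% to 63.9%. The midpoint within classes of width was added after the data were seen. The causes were not tested.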
